A study of Mus musculus with 3 samples.

Results

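The RNA of 9 acute-phase and iron-handling genes was examined on the chromatin of mouse macrophages. The genes were Saa3, Lcn2, Hp, Slc11a1, Slc40a1, Tfrc, Fth1, Ftl1 and Hmox1. They were chosen by gene symbol, with no use of measured values in the rule, although earlier results of these data were known. They are 9 of 55536 annotated genes, or of 22015 protein-coding genes when mitochondrially encoded ones are set aside. Bone-marrow-derived macrophages of C57BL/6J mice, which are cells grown in culture from bone marrow precursors, had been exposed to lipid A, the portion of bacterial lipopolysaccharide sensed by Toll-like receptor 4. The exposure was 100 ng/ml for 12 h, followed by 12 h after washout and then 100 ng/ml again for 90 min. Chromatin was separated from the rest of the cell, and its total RNA was sequenced after depletion of ribosomal RNA. There were 3 libraries, all of this 1 condition, started from 1 µg of RNA in replicate 1, 250 ng in replicate 2 and 500 ng in replicate 3. Untreated cells, and cells that met lipid A once, were not analysed here, so each value below is a level and not a response. The labels number 3 biological replicates and give 1 donor id, but none states whether separate animals or cultures were used. Each SD and p-value therefore covers only the spread between these libraries, which may be technical.

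Macrophages take part in the acute-phase response, the rise of defence proteins after infection, and they are also the cells that recycle iron from old red blood cells. Serum amyloid A, lipocalin 2 and haptoglobin are secreted defence proteins. Lipocalin 2 binds the siderophores with which bacteria collect iron, and haptoglobin binds free haemoglobin. Iron enters a cell through the transferrin receptor, is stored inside a shell of ferritin heavy and light chains and leaves through ferroportin, while haem oxygenase 1 releases iron from haem. When iron is low, the iron regulatory proteins bind a short hairpin in several of these messengers, the iron-responsive element: in a 5′ UTR it blocks translation, and in the 3′ UTR of the transferrin receptor messenger it protects that RNA from decay. C57BL/6 mice carry a loss-of-function allele of Slc11a1, which limits them as a model for that transporter, whereas its RNA can still be measured.

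Levels are given as TPM, an abundance relative to the whole library and corrected for length, as the authors deposited them in a gene table made from alignments. A separate transcript table, made from the reads without an alignment file, is called the read-based table here. Levels are from the gene table unless the read-based table is named. The expected counts on annotated genes totalled 12502177, 21683473 and 16844974 in the order of the replicate numbers. Protein-coding genes held 34.2%, 27.4% and 29.4% of TPM in replicates 1, 2 and 3, so a TPM also depends on how much the other features took. All 8 macrophage markers were at 1 TPM or more in each library, with sums between 756.8 and 974 TPM. None of 10 neutrophil markers was, with sums between 0.15 and 0.71 TPM, and S100a8, Elane and Ly6g were listed at 0 throughout. None of 6 hepatocyte markers was either, with sums up to 0.11 TPM and Alb listed at 0. Of 8 erythroid markers, Alas2 was, with 4.63, 5.34 and 3.32 TPM. In the read-based table the neutrophil marker Mpo, with 1.30, 1.01 and 1.32 TPM, and the erythroid marker Epb42, with 11.2, 4.49 and 6.14 TPM, reached that level too. In these bulk libraries, fewer cells of a type and less RNA per cell cannot be told apart.

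The hairpins that connect 4 of the members were located first, because the transcript results below turn on which RNAs hold them. The full-length coding transcript of each gene, taken as the one with the lowest transcript number in the annotation, was searched for the loop CAGTGN, with N any base other than G, flanked by 5 paired stem bases and with an unpaired C 6 bases before the loop. G-T pairs were allowed, and only the transcribed strand was searched. Matches are shown 5′ to 3′ as DNA letters of the GENCODE M21 transcripts (mm10), as 30 bases with the 6-base loop in capitals.
Fth1, 5′ UTR, chr19:9982732-9982761, plus strand: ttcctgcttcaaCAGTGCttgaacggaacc
Ftl1, 5′ UTR, chr7:45459778-45459807, minus strand: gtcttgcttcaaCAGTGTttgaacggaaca
Slc40a1, 5′ UTR, chr1:45925464-45925493, minus strand: caacttcagctaCAGTGTtagctaagtttg
Tfrc, 3′ UTR, chr16:32631219-32631248, plus strand: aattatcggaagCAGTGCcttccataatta
Tfrc, 3′ UTR, chr16:32631598-32631627, plus strand: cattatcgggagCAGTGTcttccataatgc
Tfrc, 3′ UTR, chr16:32631663-32631692, plus strand: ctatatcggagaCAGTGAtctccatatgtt
Tfrc, 3′ UTR, chr16:32631710-32631739, plus strand: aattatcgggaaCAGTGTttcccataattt
The 3 genes for storage and export had 1 match each, in the 5′ UTR, and Tfrc had 4, all in the 3′ UTR. The other 5 members had none. Such a match was present in 17 of 17699 5′ UTRs searched, or 0.0961%, and in 70 of 18911 3′ UTRs, or 0.370%. A match describes these letters and is not evidence of binding.

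The members covered a wide range of levels on chromatin. A TPM of 1 or more in each library was reached by 8 of the 9, beside 41.1% of all protein-coding genes, and a TPM of 10 or more by 5 of the 9, beside 19.1%. Their median was 17.7 TPM, against 0.38 TPM over all protein-coding genes and 9.74 TPM over the 9688 with a mean of 1 or more. In falling order of mean TPM the members were Fth1, Saa3, Ftl1, Slc11a1, Tfrc, Hmox1, Slc40a1, Lcn2 and Hp. Each neighbouring pair in that order differed, on the log2(TPM + 1) scale, by more than the SD of its difference over the libraries, with the same sign in 3 of 3. The closest pair was Slc40a1 and Lcn2, with a difference of 0.26 ± 0.19 (SD, n = 3), and the next was Saa3 and Ftl1 with 0.59 ± 0.37. The order of the means was the same in the read-based table, although Lcn2 and Slc40a1 were level in its replicate 1, at 3.25 and 3.22 TPM. In CPM, which are counts scaled by library total with no length correction, Slc40a1 with a mean of 10.3 stood above Hmox1 with 7.57, the reverse of their order in TPM.

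**Figure D1:**
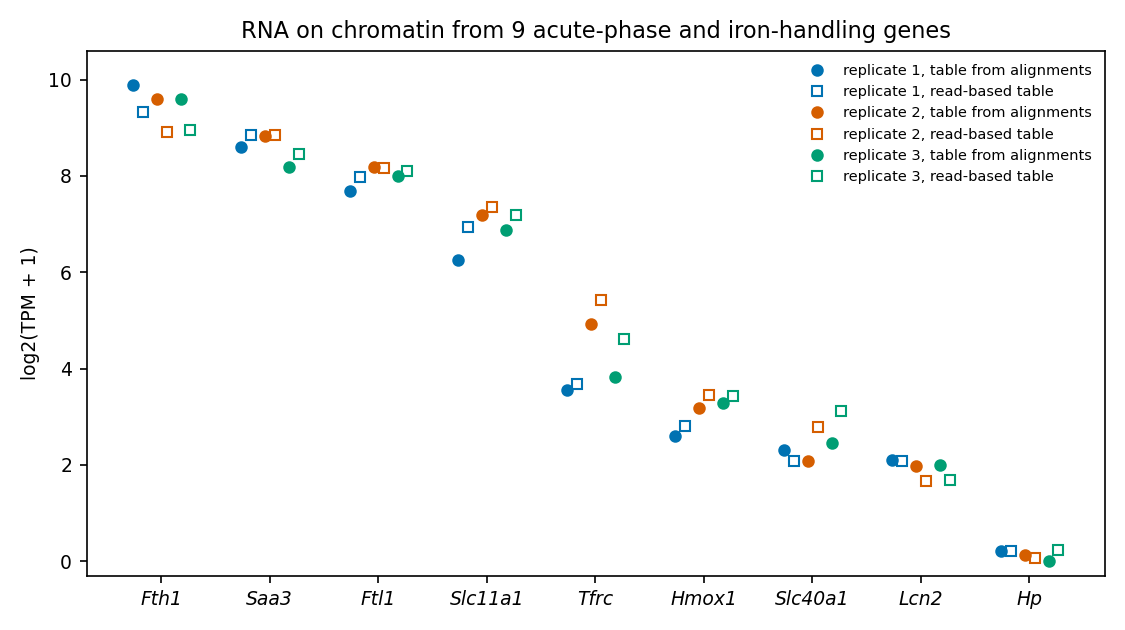
Level of each gene in each of the 3 libraries, as log2(TPM + 1), ordered by mean. Filled circles are the table made from alignments and open squares the read-based table, and colours are the replicates. Fth1 and Saa3 lie at the top and Hp at or near 0, and Tfrc is higher in replicate 2 than in replicates 1 and 3 in both tables.

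Among the secreted acute-phase proteins, Saa3 was high, Lcn2 low and Hp at the limit of detection. Saa3, the serum amyloid A gene that mouse macrophages express (ENSMUSG00000040026, chr7:46711998-46715700, minus strand), had 389.6, 456 and 290.2 TPM in replicates 1, 2 and 3, from 5330, 7708 and 5115 expected counts. That placed it 78th among protein-coding genes. Replicate 2 was highest in TPM, but replicate 1 was highest in CPM, with 426, 356 and 304, since the effective length the authors used for Saa3 was 1260, 861 and 1171 bases. The read-based table gave 461, 459.9 and 352 TPM, so replicates 1 and 2 were level there. Of its relatives, Saa1 was listed at 0 in both tables and Saa2 had 0.08, 0.02 and 0.09 TPM. Saa4 was listed at 0 in the gene table but had 1.41, 2.27 and 3.23 TPM in the read-based table.

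Lcn2, the siderophore-binding protein lipocalin 2 (ENSMUSG00000026822, chr2:32384633-32388252, minus strand), had 3.32, 2.96 and 2.99 TPM from 24, 36 and 28 counts. Differences between its libraries were not detectable at this depth: the exact 95% Poisson intervals, which cover counting error only, were 2.13 to 4.94, 2.07 to 4.09 and 1.99 to 4.32 TPM and overlapped. Saa3 exceeded Lcn2 by 117, 154 and 97.1 times in TPM. On the log2(TPM + 1) scale the difference was 6.51 ± 0.33 (SD, n = 3), higher in 3 of 3, and the sign-flip permutation test, exact and two-sided, gave p = 0.25. This is the smallest p that 3 libraries allow, and it was 0.3 after Benjamini-Hochberg adjustment over the 6 pairs of genes tested here.

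Hp, the haemoglobin-binding protein haptoglobin (ENSMUSG00000031722, chr8:109575128-109579172, minus strand), had 2, 2 and 0 counts, or 0.16, 0.09 and 0 TPM. In replicate 3, where no read was counted, as many as 3 counts would be compatible with that 0, which for Hp is 0.279 TPM. Saa3 exceeded Hp by 2435 times in replicate 1 (674 to 20106 from the exact 95% Poisson interval of the Hp count) and by 5067 times in replicate 2 (1403 to 41839). Against the floor of 3 counts, Saa3 was 1041-fold higher in replicate 3. The exact 95% Poisson interval of the Hp count reached further there, to 3.689 counts or 0.3428 TPM. The 1041-fold value is therefore not the lower limit that matches the intervals of replicates 1 and 2. The log2(TPM + 1) difference was 8.43 ± 0.27 (SD, n = 3), positive in 3 of 3, and the exact permutation test gave p = 0.25 (0.3 adjusted). With Hp this near 0, the size of the difference was set largely by the added 1. It was 11.09 ± 0.49 with a pseudocount of 0.1, and 9.95 ± 0.345 in TPM rescaled to protein-coding genes. In the read-based table Hp had 0.1527, 0.05312 and 0.1801 TPM, highest in replicate 3. The difference there, again with 1 added, was 8.549 ± 0.286. Lcn2 and Hp are also products of neutrophil granules, and the values of the neutrophil markers in the same libraries are given above.

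How many of the wider acute-phase list had RNA on chromatin depended on the table. Of 20 serum amyloid A and acute-phase protein genes other than the members, 3 reached 1 TPM in each library and 7 were listed at 0 throughout, whereas 8 reached 1 TPM in the read-based table, where 52.1% of all protein-coding genes did. C3, the central complement component, had 266, 146 and 309 TPM. Cp, the copper ferroxidase ceruloplasmin that loads iron onto transferrin, had 265, 166 and 153 TPM. Orm2, an orosomucoid, had 1.45, 1.44 and 1.01 TPM in the gene table but 116, 62.5 and 61.4 TPM in the read-based table, so its level was not settled by these files. Its neighbour in the family Orm3 had 0.97, 0.60 and 0.38 TPM against 60.7, 29.8 and 32.2, and Lbp, Orm1, Crp and Saa4 also passed 1 TPM in the read-based table alone. The fibrinogen genes Fga, Fgb and Fgg, made mainly by liver, were listed at 0 in every library.

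Of 9 receptors and partners of acute-phase proteins, 6 reached 1 TPM in each library, beside 41.1% of all protein-coding genes: Lrp1, a scavenger receptor for haem-haemopexin among other ligands, had 105 ± 61.7 TPM (SD, n = 3), the formyl peptide receptor Fpr2 had 56.5 ± 24.0 and Tlr2 had 38.0 ± 7.85. Cd163, the macrophage receptor for haptoglobin-haemoglobin complexes, had 0.123 ± 0.083 TPM (mean 0.428 in the read-based table), and Mmp9, a secreted metalloproteinase, had 0.040 ± 0.026. Of 10 transcription and signalling genes, 8 reached 1 TPM, and both counts were the same in the read-based table. Nfkbiz, an NF-kB cofactor for secondary response genes, had 169 ± 54.3 TPM, Il1b had 120.3 ± 47.4 and Stat3 had 61.2 ± 7.72 (mean 112 in the read-based table), while Osmr was listed at 0 (mean 0.853). The C/EBP factor gene Cebpb hardly varied, with 10.3 TPM in each library.

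**Figure D2:**
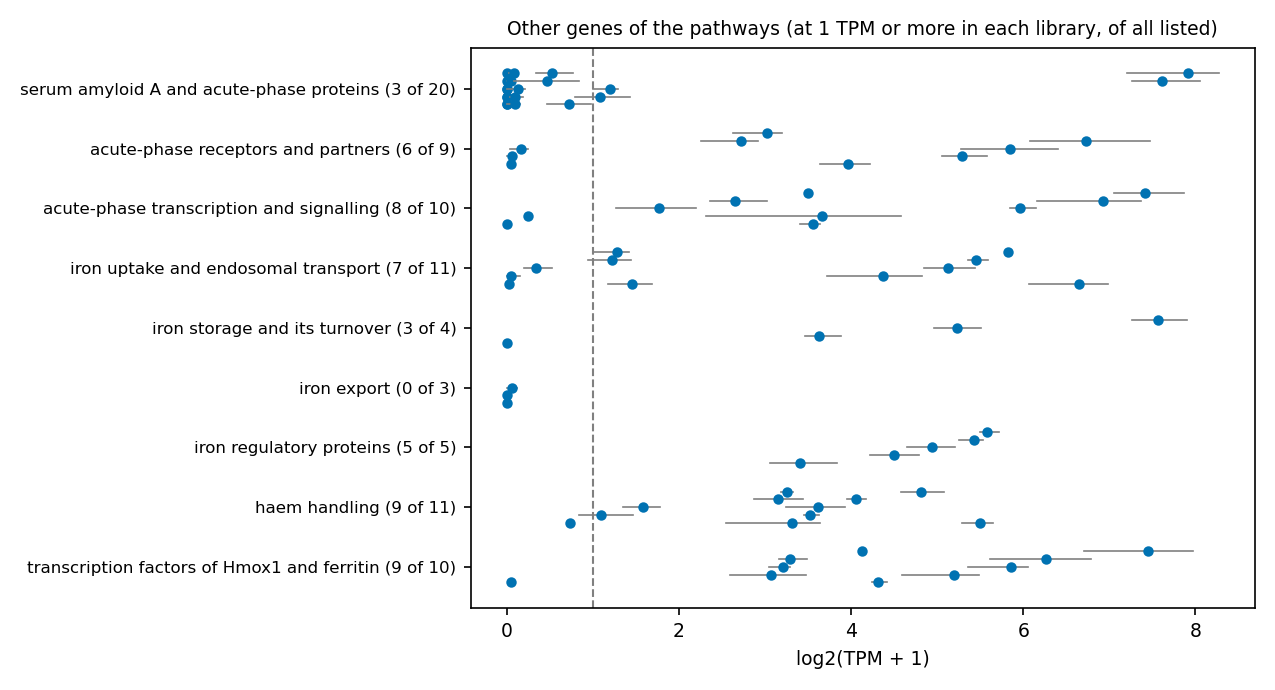
Genes of the 9 pathway lists other than the members, as log2(TPM + 1). Points are means of 3 libraries, grey lines run from the lowest to the highest library, the vertical spread within a list has no meaning, and the dashed line marks 1 TPM. Values are from the gene table, where acute-phase proteins lie mostly at 0, with C3 and Cp to the right. All 5 genes on the list labelled iron regulatory proteins lie above the line.

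Fth1 RNA was the most abundant of the set, and Ftl1 RNA came after that of Saa3. Fth1, the ferritin heavy chain with ferroxidase activity (ENSMUSG00000024661, chr19:9980598-9985098, plus strand), had 946, 774 and 771 TPM, from 10188, 14437 and 10901 counts. It was 21st among protein-coding genes, and replicate 1 stood above the other replicates, which were level. The read-based table gave it 646, 479 and 495 TPM, with replicate 1 again highest. Ftl1, the light chain that helps to form the iron core (ENSMUSG00000050708, chr7:45457944-45459884, minus strand), had 206, 291 and 254 TPM, from 1472, 3503 and 2336 counts. Its order over the libraries was the opposite one, lowest in replicate 1.

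Gene totals and full-length transcripts ranked the ferritin chains differently. By gene, Ftl1 stood at 0.217, 0.376 and 0.329 of Fth1 in TPM. The log2(TPM + 1) difference, Ftl1 minus Fth1, was -1.74 ± 0.41 (SD, n = 3) and negative in 3 of 3, and the exact permutation test gave p = 0.25 (0.3 adjusted over 6 pairs). On the full-length coding transcripts alone, Fth1 had 33.2, 91.3 and 67.1 TPM, whereas Ftl1 had 117, 170.1 and 140.2. That difference was 1.24 ± 0.48 (SD, n = 3), positive in 3 of 3 libraries. In the read-based table, full-length Fth1 had 39.2, 43.7 and 40.4 TPM, and full-length Ftl1 had 37.1, 76.2 and 54.3, a difference of 0.38 ± 0.43 that was positive in 2 of 3. The excess of Fth1 over Ftl1 by gene was therefore carried by Fth1 transcripts other than the full-length one in both tables, and the full-length order was not the same in every library.

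**Figure D3:**
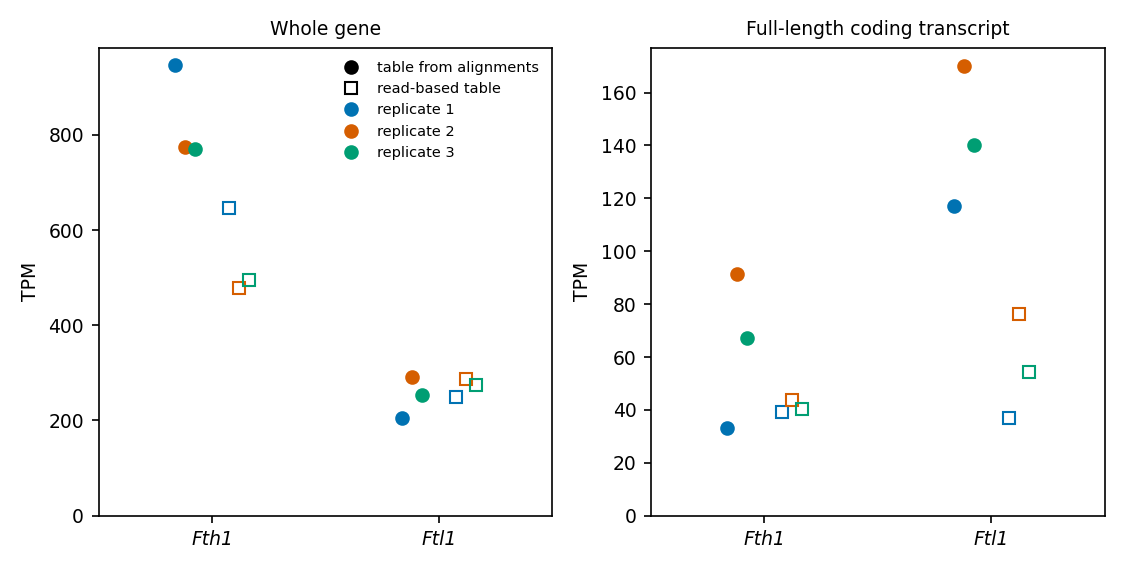
TPM of Fth1 and Ftl1 in each library, on linear axes from 0, for the whole gene (left) and for the full-length coding transcript (right). Filled circles are the table made from alignments, open squares the read-based table, and colours the replicates. Fth1 lies above Ftl1 in every library on the left, and Ftl1 lies above Fth1 on the right except in replicate 1 of the read-based table.

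Ferritin genes have many near-identical copies, which can share reads. Of 15 other genes and pseudogenes named for ferritin, 12 were listed at 0 in every library, among them Ftmt, the mitochondrial ferritin. Fth-ps2 had 9.38 ± 3.18 TPM (SD, n = 3), Ftl1-ps1 had 1.13, 8.33 and 8.12 TPM, and Fth-ps3 had 1.46 ± 1.30. The read-based means were 10.7, 1.39 and 3.55 TPM. The authors' gene table gives a posterior standard deviation of each count, which is above 0 where reads could be divided between genes in more than 1 way. It was 8.43, 10.3 and 8.88 counts for Ftl1 and 0 for the other 8 members. Ftl1 also overlaps Gm10252 on the opposite strand, which had 8.62 ± 1.87 TPM. The sources used here do not give the strand setting of the counting, so reads of the overlapping genes cannot be told apart with certainty.

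Most counts of Saa3 and Fth1 were on transcripts that hold long stretches of intron. Saa3-202 is annotated as coding but consists of the first exon and a long second one, and 2051 of its 2200 bases are intron in the full-length transcript. It took 87.6%, 77.5% and 87.6% of Saa3 counts and, being longer, 55.3%, 34.4% and 52.6% of Saa3 TPM. Fth1-208, annotated as a retained intron, holds the whole first intron of the full-length transcript, 1197 bases. It took 57.9% ± 0.56 (SD, n = 3) of Fth1 counts and 30.5% ± 0.54 of its TPM. Transcripts of Fth1 annotated as retained intron together took 91.3%, 85.4% and 86.8% of its TPM, and the full-length transcript took 3.51%, 11.8% and 8.71%.

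**Figure D4:**
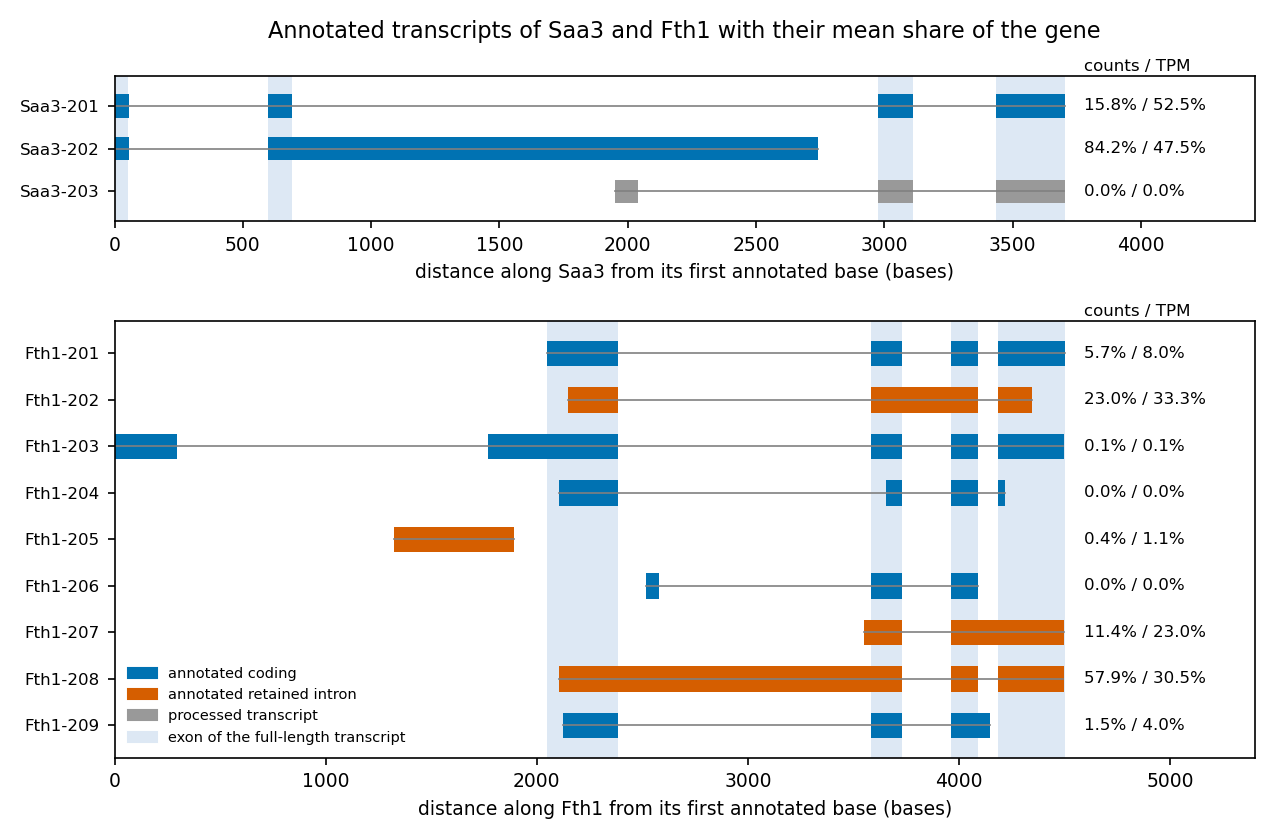
Annotated transcripts of Saa3 (top) and Fth1 (bottom), drawn to scale by distance in bases from the gene's first annotated base in the direction of transcription. Boxes are exons, coloured by annotated type, pale bands mark the exons of the full-length transcript, and the figures at the right are the mean share of the gene's counts and TPM over 3 libraries. Saa3-202 and Fth1-208 fill introns of the full-length transcript and have the largest share of counts in their gene.

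The members differed widely in how much of their RNA was on the full-length coding transcript. For comparison, over 5881 protein-coding genes with an annotated retained-intron transcript and 1 TPM or more in each library, the median share of TPM on the full-length transcript was 17.2%, 21.6% and 20.7%. The share was 78.3% ± 4.84 (SD, n = 3) for Hmox1, 56.9% ± 1.58 for Ftl1, 52.5% ± 11.4 for Saa3, 33.4% ± 6.44 for Slc40a1 and 25.2% ± 6.05 for Tfrc. It was lower for Lcn2 with 14.1% ± 2.49, for Slc11a1 with 11.7% ± 3.74 and for Fth1 with 8.0% ± 4.2. The median retained-intron share over the same 5881 genes was 48.1% ± 2.41, and among the members it ran from 0% for Saa3, which has no transcript of that type, and 21.7% ± 4.84 for Hmox1 to 87.8% ± 3.10 for Fth1. Counting any transcript with 50 bases or more of a full-length transcript's introns, the Saa3 share became 47.5% ± 11.4, and that of Slc11a1 was 86.1% ± 2.87 instead of 46.4% ± 8.81. Intron reads could be assigned only where an annotated transcript holds that intron, so these shares also reflect the annotation. The read-based table gave other values and another order. Among the members listed here, its full-length share was highest for Saa3 with 68.1% ± 5.24, then Hmox1 with 65.4% ± 1.94 and Ftl1 with 20.4% ± 5.85. It was 12.1% ± 1.44 for Tfrc and lowest for Slc11a1, with 3.91% ± 2.76. By counts, the full-length transcript took 15.75% ± 5.82 of Saa3 and 53.8% ± 11.8 of Tfrc.

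**Figure D5:**
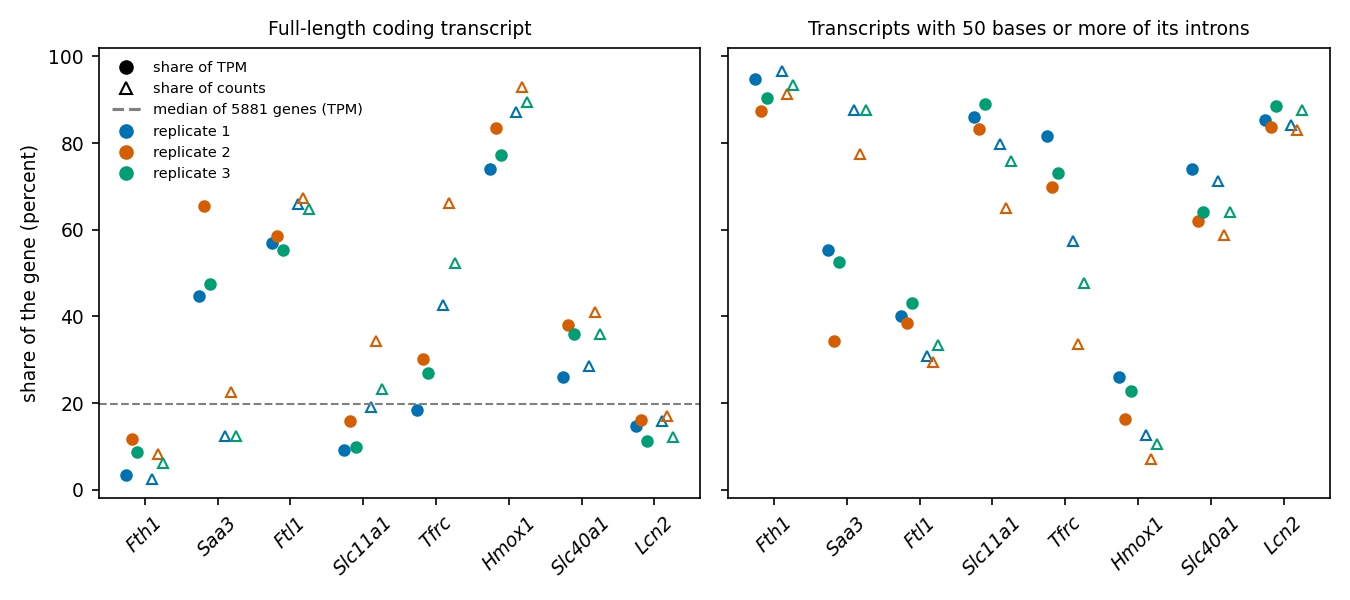
Share of each gene, in percent, on the full-length coding transcript (left) and on transcripts with 50 bases or more of its introns (right), for the 8 members with a mean of 1 TPM or more. Circles are shares of TPM, triangles shares of counts, colours the replicates, and the dashed line is the mean over libraries of the median TPM share of 5881 genes. On the left Hmox1 lies highest and Fth1 lowest, and replicate 2 is the highest of the 3 libraries for each gene.

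The libraries differed in the same sense for each of these members. The full-length share of TPM was highest in replicate 2 for 8 of 8, beside 39.3% of the 7738 protein-coding genes whose share varied, and lowest in replicate 1 for 6 of 8. In the read-based table it was highest in replicate 2 for 6 of 8, the exceptions being Slc40a1 and Tfrc. In TPM, 5 of 7 members' full-length transcripts with a mean of 1 or more were highest in replicate 2, beside 30.1% of such transcripts. By gene, 4 of 8 members were highest there, beside 28.0% of protein-coding genes, and 3 of 8 in CPM. Replicate 2 also had the least starting RNA, the most counts and the smallest protein-coding share of TPM, and the part of these differences in the result was not tested.

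Tfrc, the receptor that takes up transferrin-bound iron (ENSMUSG00000022797, chr16:32608920-32632794, plus strand), varied most between libraries. It had 10.8, 29.3 and 13.1 TPM from 236, 1212 and 470 counts, so replicate 2 stood alone and replicates 1 and 3 were close. By gene-table TPM and by CPM it was the only 1 of 8 members whose highest library exceeded its lowest by more than 2 times. In TPM, 20.0% of protein-coding genes did so. The Tfrc ratio was 2.73 in TPM and 2.96 in CPM. The read-based table had the same order, with 11.8, 42.2 and 23.4 TPM, but there Slc40a1 also passed 2 times, from 3.22 to 7.73 TPM. In TPM rescaled to protein-coding genes, Slc11a1 passed it too, from 221.4 to 529.7. So did Hmox1, from 14.93 to 30.05. Full-length Tfrc had 1.98, 8.84 and 3.53 TPM and took 42.7%, 66.2% and 52.4% of Tfrc counts.

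Slc40a1, which encodes the only known iron exporter of mammals, ferroportin (ENSMUSG00000025993, chr1:45908068-45926523, minus strand), had 3.96, 3.26 and 4.50 TPM from 123, 184 and 211 counts. Replicate 2 was lowest there, whereas replicate 1 was lowest in the read-based table, with 3.22, 5.87 and 7.73 TPM. Tfrc exceeded Slc40a1 by 2.71, 8.99 and 2.92 times in TPM, a log2(TPM + 1) difference of 1.81 ± 0.88 (SD, n = 3) with a positive sign in each, and the exact permutation test gave p = 0.25 (0.3 adjusted). Without replicate 2 it was 1.30. The other 3 genes listed for export, Heph and the hepcidin genes Hamp and Hamp2, were at or near 0. Heph, a ferroxidase, had 0, 3 and 1 counts and at most 0.09 TPM, and the hepcidin genes were listed at 0. The ferroxidase gene Cp, placed on the acute-phase list, had 265, 166 and 153 TPM, as given above.

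Much of the RNA of the 4 hairpin genes was on transcripts that hold a whole 30-base match shown above. By TPM the share was 88.4% ± 4.46 (SD, n = 3) for Slc40a1, 59.4% ± 2.28 for Ftl1, 43.3% ± 5.13 for Tfrc and 42.6% ± 3.06 for Fth1. By counts it was 98.9% ± 0.54, 68.8% ± 2.00, 81.3% ± 6.15 and 65.2% ± 2.81 in the same order. The intron-holding Fth1-208 contains the hairpin whole, whereas Fth1-202, which starts inside it, and Fth1-207, which starts downstream, do not. For Fth1 the read-based share, 41.7% ± 2.16, was close to that from alignments. It was lower for Ftl1 with 43.3% ± 0.81 and for Tfrc with 22.1% ± 3.72, and for Slc40a1 it was 87.3%, 42.8% and 43.3% in replicates 1, 2 and 3.

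Slc11a1, the divalent metal transporter of the phagosome also known as NRAMP1 (ENSMUSG00000026177, chr1:74375195-74386062, plus strand), had 75.5, 145 and 116 TPM from 822, 2712 and 1547 counts. Replicate 1 was lowest and replicate 2 highest, as in the read-based table with 122, 164 and 145 TPM. Full-length Slc11a1 had 6.87, 23.1 and 11.5 TPM, so most of the gene's TPM lay on other transcripts. By counts the full-length transcript took a mean of 25.6% of the gene. Slc11a1-208 and Slc11a1-203, which are longer and annotated as retained intron, took 25.2% and 22.8%. Its relative Slc11a2, the endosomal transporter DMT1, had 55.8 ± 1.33 TPM, and a mean of 94.2 in the read-based table. Slc11a1 minus Slc11a2 was 0.95 ± 0.46 (SD, n = 3) on the log2(TPM + 1) scale, positive in 3 of 3, and the exact permutation test gave p = 0.25 (0.3 adjusted). In CPM, which are not corrected for length, the difference was -0.32 ± 0.39, and in the read-based table it was 0.59 ± 0.31.

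Most genes listed for iron uptake and its regulation reached 1 TPM in each library, as did 41.1% of all protein-coding genes. Of 11 uptake and endosomal genes, 7 did so. They were led by the mitochondrial iron importer Slc25a37 with 98.9 ± 30.2 TPM (SD, n = 3), by Slc11a2 and by the lysosomal channel gene Mcoln1 with 42.8 ± 4.01. Steap4, a metalloreductase, was the lowest with 0.017 ± 0.015. The read-based table had 9 of the 11 at 1 TPM or more, beside 52.1% of all protein-coding genes. Among the 9 was Tfr2, the second transferrin receptor, with 8.30, 8.43 and 6.15 TPM against 0, 0.11 and 0 in the gene table. Of 4 genes of storage and ferritin turnover, Pcbp2, an iron chaperone and RNA-binding protein, had 189 ± 43.8 TPM (mean 315 in the read-based table), Ncoa4, the receptor for ferritin autophagy, had 36.7 ± 7.39 (mean 55.5) and Pcbp1 had 11.4 ± 2.08. All 5 genes of iron regulation reached 1 TPM. Among them Ireb2 and Aco1, which encode the iron regulatory proteins, had 29.8 ± 5.99 and 9.59 ± 3.28 TPM. Fbxl5, which targets the protein product of Ireb2 for degradation, had 42.2 ± 4.4. Zc3h12a, a nuclease that cleaves Tfrc messenger, had 46.8 ± 4.07 (mean 80.8 in the read-based table) and Rc3h1, which binds related stem-loops, had 21.6 ± 4.55.

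Hmox1, the inducible enzyme that breaks down haem (ENSMUSG00000005413, chr8:75093621-75100589, plus strand), was modest. It had 5.09, 8.09 and 8.82 TPM from 64, 187 and 151 counts, with replicate 1 below the other replicates, and the same held in the read-based table with 6.02, 9.97 and 9.80 TPM. The exact 95% Poisson interval of replicate 1, 3.92 to 6.50 TPM, did not reach that of replicate 2, 6.97 to 9.34. Hmox2, the constitutive isoenzyme, had 9.90, 6.33 and 7.42 TPM, so the order of the pair was not the same in all libraries of the gene table. In the read-based table Hmox2 had 19.4, 13.4 and 15.0 TPM and was above Hmox1 in 3 of 3. The log2(TPM + 1) difference, Hmox1 minus Hmox2, was -0.10 ± 0.64 (SD, n = 3), positive in 2 of 3, and the exact permutation test gave p = 1.0. It was -0.83 ± 0.61 in the read-based table.

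Of 11 haem genes, 9 reached 1 TPM, led by Blvrb, a biliverdin reductase, with 44.3 ± 5.64 TPM (SD, n = 3), Alas1, which starts haem synthesis, with 27.1 ± 5.02 and the haem exporter gene Flvcr1 with 15.7 ± 1.33. Flvcr2 was lowest with 0.663 ± 0.015. Of 10 genes listed for the transcription of Hmox1 and ferritin, which include Keap1, 9 reached 1 TPM. Nfe2l2, which encodes the activator NRF2, had 249, 104 and 167 TPM, Mitf had 75.6 ± 31.2, Mafg had 57.0 ± 14.6 (mean 89.8 in the read-based table) and Epas1 had 0.033 ± 0.023. Epas1 had 3.76, 3.17 and 4.13 TPM in the read-based table. There 10 of the 10 genes listed for transcription and 10 of the 11 haem genes reached 1 TPM. Over all 9 lists, 50 of 83 genes, or 60.2%, reached 1 TPM in each library, beside 41.1% of all protein-coding genes. In the read-based table it was 59 of 83, or 71.1%, beside 52.1%.

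Across the 3 libraries, the listed gene whose pattern lay closest to each member was found by the largest absolute difference of centred log2(TPM + 1), over 53 candidates. It was Steap3 for Ftl1 at 0.007, Stat3 for Fth1 at 0.011, Scarb1 for Hmox1 at 0.043, Blvra for Saa3 at 0.075, Slc11a2 for Lcn2 at 0.079, Il6st for Slc40a1 at 0.087, Tfeb for Slc11a1 at 0.122 and Lrp1 for Tfrc at 0.234. Steap3 had only 0.92, 1.73 and 1.36 TPM. At that level the added 1 shrinks log2 changes, so its distance to Ftl1 depends on this setting. All genes of a library share its depth and composition, which differed between the 3 libraries, so these distances are a description.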

How the data were processed

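For each library the authors deposited 3 tables on mm10 with GENCODE M21, per the file headers and README texts: gene and transcript values from alignments, and transcript values from the reads directly. The sources used here name neither the aligner nor the quantifiers. The expected counts the authors deposited are estimates that need not be whole, and were rounded for edgeR 4.0.16 (TMM factors) and DESeq2 1.42.0 (size factors), run in R 4.3.3. The TPM the authors deposited count all features of the library in the total, and effective lengths are in bases, per the file headers. Rows that are no annotated gene, 1.34%, 0.292% and 0.416% of counts, were left out of library sizes. CPM were computed over annotated genes. Chi-square comparisons over genes with 20 counts or more found that each pair of libraries differed beyond sampling noise.

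With 1 condition, no model across genes was fitted. Differences between 2 genes were taken within each library on log2(TPM + 1), and 6 pairs were tested by permutation of signs over libraries, exact and two-sided, with Benjamini-Hochberg adjustment. Scripts used Python 3.11.15, numpy 2.4.6, pandas 2.3.3, SciPy 1.17.1 and matplotlib 3.10.9. Only the functions for permutation, adjustment and intron bases were tested on known answers, and that for transcript shares on simulated counts. The members, lists and pairs were chosen with earlier results of these data known. The genes named were all members, the 3 highest and the lowest of each list, the members of small counts and the 3 highest ferritin relatives; a few others, such as Cd163, Cebpb, the Saa and fibrinogen genes and the markers, were named after their values were seen. Alternatives were the read-based table, a pseudocount of 0.1, TPM rescaled to protein-coding genes, CPM with both factors, a minimum of 10 TPM and leaving out each library.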

Additional observations from a re-analysis of the deposited data

How the results depend on the processing

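The 6 differences between genes were recomputed under 8 other settings each, and 45 of the 48 values had the direction reported. Much of that count was fixed in advance. Where a pair had the same sign in every library, the pseudocount, rescaled TPM and leaving out a library could not change its direction. For such pairs only the read-based table and CPM could. CPM with TMM and with DESeq2 factors differ only by a constant per library, so they were not separate checks. Slc11a1 minus Slc11a2 became -0.315 in CPM with TMM factors and -0.316 with DESeq2 size factors, where length is not corrected. Hmox1 minus Hmox2 ran from -0.309 to 0.266 when each library was left out in turn, and was positive without replicate 1, while the read-based table gave -0.833. An alternative chosen after seeing the data took full-length coding transcripts alone: Ftl1 minus Fth1 became 1.24, or 0.376 in the read-based table, and the other 3 pairs of members had the direction reported. A minimum of 10 TPM lowered the members counted from 8 to 5 and the listed genes from 50 to 31, while the read-based table counted 59 of the latter. The few counts of Hp and Lcn2 limit their precision, and the read-based level of Fth1 was 0.65 of that from alignments. No pairing of libraries between conditions was possible because they form 1 group.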
